A study of Rattus norvegicus with 10 samples.

Results

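Myelin and oligodendrocyte lineage genes were followed here in the hippocampus of rats after traumatic brain injury (TBI). The 9 genes were Mbp, Mog, Mag, Cnp, Mobp and Mal, which encode proteins of the myelin sheath and of the cell that makes it, and Olig2, Pdgfra and Cspg4, which mark the lineage and its precursors. They were chosen by symbol among the RefSeq RNA records that form the rows of the count table, with the row of the highest mean count standing for each gene. This gave 9 of 16604 symbols, on 14 of 32041 RNA records, and all 9 passed the filter on low counts. Mbp had 6 records and each of the others had 1.

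The samples were left hippocampal tissue that held CA3 and dentate gyrus, named dorsal hippocampus in the labels, from 10 adult male Sprague-Dawley rats. The 5 TBI rats received lateral fluid percussion, a pressure pulse of 3.32 atm applied to the intact dura through a craniectomy of 5 mm over the left parietal lobe. The 5 sham rats had the same anaesthesia, craniectomy and other surgery without the pulse, so both groups carried the surgical lesion of the skull. Tissue was collected 3 months after the operation, and its poly-A RNA was sequenced to reads of 36 bases. The injured rats were not monitored by EEG according to the methods of the study, so whether a given rat had seizures is not known here. Defining genes of the labelled regions were present in every library, with a summed level of 60.1 to 225 CPM (read counts scaled to a common library size) for 4 dentate granule cell genes and of 504 to 716 CPM for 4 CA3 pyramidal cell genes.

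In the central nervous system, oligodendrocytes wrap axons in myelin, a stack of membrane held together by proteins such as the product of Mbp. They arise from dividing precursors, which persist in the adult hippocampus and carry the platelet-derived growth factor receptor Pdgfra and the proteoglycan Cspg4 on their surface. Olig2 is a transcription factor needed to form the lineage, and with Sox10 and Myrf it acts on the genes of myelin. In bulk tissue such as this, fewer cells of a type and less RNA per cell cannot be told apart.

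The start regions of 4 of the genes are shown. Mag, Cnp and Mobp each belonged to a myelin pair whose Pearson r over rats passed an adjusted p of 0.05 (permutation test). No pair passed by Spearman rho, and the r of Mobp with Mag and with Cnp did not pass. Mbp and Mog also belonged to such pairs and are not shown. Olig2 was the gene with the largest difference between groups. Each start region is the 250 bases that end at the annotated start of the gene. It is from RefSeq on the GRCr8 assembly, written 5′ to 3′ on the strand of the gene. RefSeq windows were matched by symbol for 8 of the 9 genes, not for Mog. Capitals mark the letters ACAAAG or CTTTGT, the core recognised by SOX factors, and CTGGCAC or GTGCCAG, the core recognised by Myrf.
Mag (chr1:95291045-95291294, minus strand): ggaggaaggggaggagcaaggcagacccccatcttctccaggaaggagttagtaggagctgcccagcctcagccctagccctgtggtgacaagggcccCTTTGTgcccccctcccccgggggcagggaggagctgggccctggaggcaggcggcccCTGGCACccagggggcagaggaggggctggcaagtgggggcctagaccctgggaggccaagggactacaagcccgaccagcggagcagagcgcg
Cnp (chr10:86011254-86011503, plus strand): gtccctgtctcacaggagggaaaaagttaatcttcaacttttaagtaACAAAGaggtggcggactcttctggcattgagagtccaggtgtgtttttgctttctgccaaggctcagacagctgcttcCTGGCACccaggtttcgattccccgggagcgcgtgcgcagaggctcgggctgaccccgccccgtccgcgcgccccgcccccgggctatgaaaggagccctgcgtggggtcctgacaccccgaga
Mobp (chr8:128746982-128747231, plus strand): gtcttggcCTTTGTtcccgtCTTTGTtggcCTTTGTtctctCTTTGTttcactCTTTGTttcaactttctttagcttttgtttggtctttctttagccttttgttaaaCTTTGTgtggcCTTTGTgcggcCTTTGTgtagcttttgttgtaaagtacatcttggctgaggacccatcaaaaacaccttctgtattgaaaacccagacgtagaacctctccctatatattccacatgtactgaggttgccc
Olig2 (chr11:43961335-43961584, plus strand): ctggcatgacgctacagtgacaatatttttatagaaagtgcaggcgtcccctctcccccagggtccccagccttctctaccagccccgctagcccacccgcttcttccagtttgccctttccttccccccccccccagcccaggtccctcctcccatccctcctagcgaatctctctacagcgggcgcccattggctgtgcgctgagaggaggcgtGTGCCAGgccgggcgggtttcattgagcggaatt
The Mobp window held 8 copies of the SOX core, all as CTTTGT in a stretch rich in T, and 0 of the Myrf core. The Mag and Cnp windows each held 1 of both, and the Olig2 window held 1 Myrf core. Of 33469 windows of the same length over all genes, 16.3% held at least 1 SOX core and 3.78% at least 1 Myrf core on either strand. The number of copies per window was not compared. The Mal window held 1 Myrf core and 0 of the SOX core, and the windows of Pdgfra and Cspg4 held 0 of either. Mbp had 2 windows, which held 0 and 1 of the SOX core and 0 of the Myrf core. These are matches of letters within a window and were not tested as binding sites.

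Depth was 23425817 to 31671838 counts per library. Ribosomal RNA rows took 23.8% to 59.0% of these in sham and 12.5% to 25.5% in TBI libraries (exact permutation test, two-sided, p = 0.0238 for a difference in means of -19.0 percentage points, TBI minus sham), with sham replicate 4 at 59.0% and sham replicate 5 at 58.5%. Counts outside these rows ranged from 12686398 to 22089112 in sham and from 21336394 to 24735107 in TBI libraries. The 9 genes were read deeply all the same, from 342 to 1086 counts per library for Cspg4 up to 11360 to 33519 for Mbp. Levels below are CPM, scaled to library sizes adjusted by the trimmed mean of M-values (TMM), and are not corrected for transcript length, so they are compared between rats and not between genes.

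The first question was whether the genes of the myelin sheath differed between TBI and sham rats. By edgeR's quasi-likelihood test 0 of the 6 had a p under 0.05, adjusted or unadjusted, where 7.89% of all rows tested had such an unadjusted p (4.89% higher and 3% lower in TBI). Their log2 changes (TBI over sham) ran from -0.10 for Mog to 0.17 for Mag. Their 95% intervals together spanned folds of 0.788 to 1.29.

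Mbp, which encodes myelin basic protein, was at 640.3, 852, 724, 772 and 907 CPM in sham replicates 1 to 5. In TBI replicates 1 to 5 it was at 772, 618, 816, 884 and 868 CPM. The ranges of the groups lay almost on each other. The sham mean was 779 ± 105 CPM (SD, n = 5) and the TBI mean 791 ± 107 CPM (SD, n = 5). The log2 change was 0.02 with an SE of 0.108 (edgeR quasi-likelihood test, Benjamini-Hochberg adjusted p = 0.980). The sign of this small change was negative when sham replicate 1 was left out, at -0.04.

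The 5 other RNA records of Mbp showed the same flat pattern. Of these, 4 records had sham means of 766 to 776 CPM, close to the main record, and log2 changes of 0.00 to 0.02. The remaining record, NM_001025289, had a sham mean of 75.8 ± 7.29 CPM (SD, n = 5) and a TBI mean of 78.9 ± 9.85 CPM (SD, n = 5), with a log2 change of 0.06 and an SE of 0.0925. Records of the same gene share most of their sequence, and with reads of 36 bases their separate levels are uncertain. Their agreement with the main record is therefore not independent of it.

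Mobp encodes a further basic protein of compact myelin. It was at 232, 340.5, 256, 278 and 354 CPM in sham replicates 1 to 5. TBI replicates 1 to 5 had 294, 204, 297, 308 and 283 CPM. TBI replicate 2 was the lowest of all 10 rats, and the other TBI rats lay inside the sham range. The log2 change was -0.08 with an SE of 0.126 (edgeR quasi-likelihood test, Benjamini-Hochberg adjusted p = 0.919). It was 0.02 without TBI replicate 2 and -0.15 without sham replicate 1.

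Mag encodes myelin-associated glycoprotein, which sits on the innermost wrap of the sheath and faces the axon. In sham replicates 1 to 5 it was at 214, 278, 291, 276 and 284 CPM. In TBI replicates 1 to 5 it was at 309.8, 266, 294, 337 and 308 CPM. The TBI rats other than replicate 2 were above the highest sham rat, and sham replicate 1 stood well below the other sham rats. Mag had the largest change of the 6 genes, with a mean of 269 ± 31.2 CPM (SD, n = 5) in sham against 303 ± 25.9 CPM (SD, n = 5) in injured rats. Its log2 change of 0.17 had an SE of 0.0915, an unadjusted p of 0.0748 and an adjusted p of 0.681 (edgeR quasi-likelihood test, Benjamini-Hochberg). The unadjusted p of Mag was 0.228 without sham replicate 1 and 0.0351 without TBI replicate 2.

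Cnp encodes an enzyme found in the cytoplasm-filled channels of myelin. It was at 279.7, 367, 359, 397 and 390.1 CPM in sham replicates 1 to 5. TBI replicates 1 to 5 had 396, 323, 347, 419 and 394 CPM. The groups overlapped over most of their range, and the log2 change was 0.07 with an SE of 0.0994 (edgeR quasi-likelihood test, Benjamini-Hochberg adjusted p = 0.906).

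Mal, which encodes a proteolipid that helps sort cargo to the myelin membrane, ran from 81.9 to 156 CPM in sham rats with a median of 118 CPM. In TBI rats it ran from 108 to 133 CPM with a median of 112 CPM. The TBI rats thus lay inside the sham range, and the log2 change was -0.04 with an SE of 0.128 (edgeR quasi-likelihood test, Benjamini-Hochberg adjusted p = 0.962). Mog, the gene of a glycoprotein on the outer face of the sheath, ran from 46.5 to 68.3 CPM with a median of 61.9 CPM in sham rats. In TBI rats Mog ran from 43.2 to 59.5 CPM with a median of 54.96 CPM. Its log2 change was -0.10 with an SE of 0.112 (edgeR quasi-likelihood test, Benjamini-Hochberg adjusted p = 0.873).

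**Figure D1:**
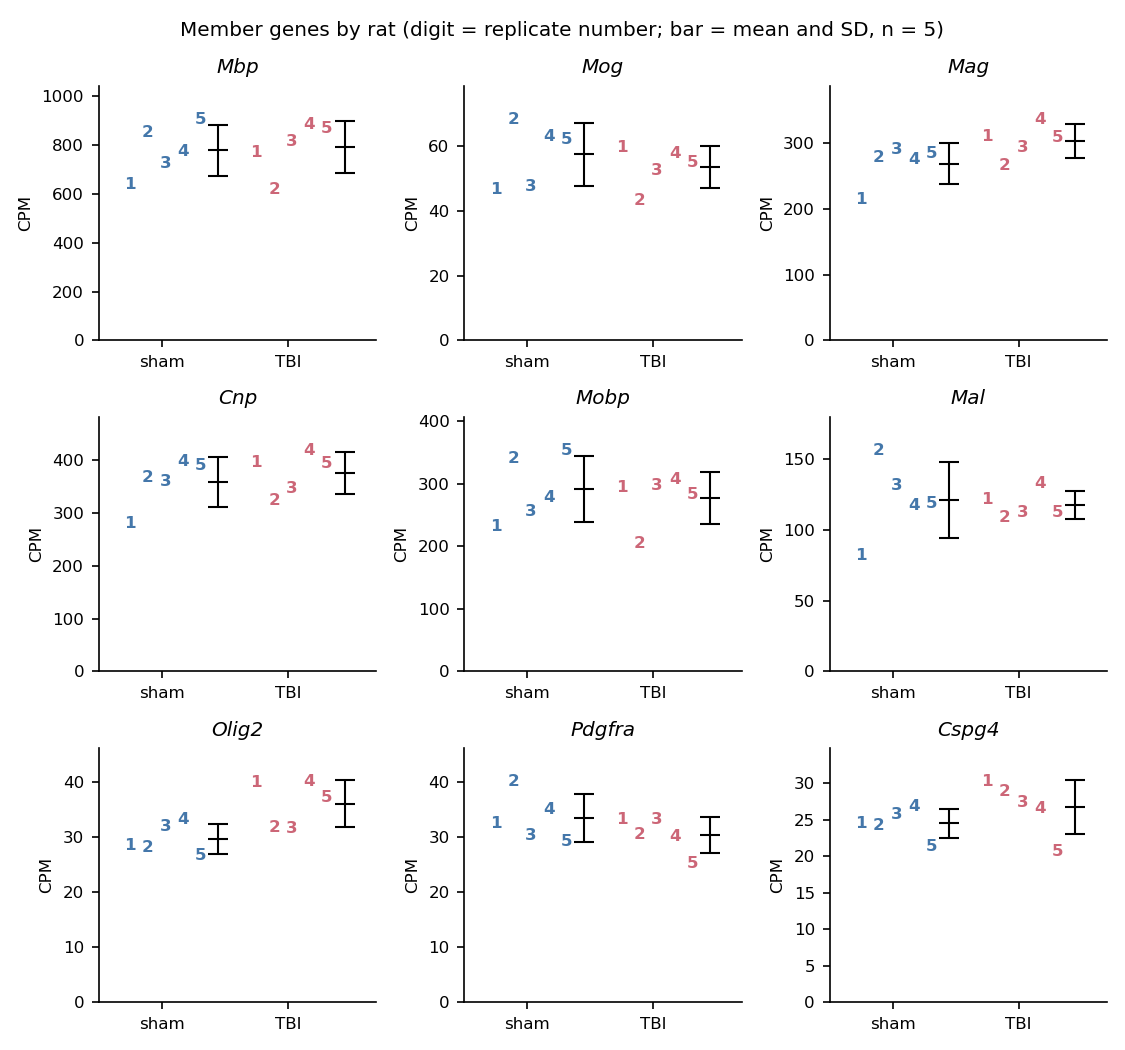
Level of each of the 9 genes in CPM (y axis, from 0) in the 5 sham and the 5 TBI rats, each rat shown by its replicate number, with the mean and SD of each group as a bar. Sham replicate 1 and TBI replicate 2 are the lowest of their groups in all 6 myelin genes, and the groups overlap in all 9 genes. Over all 22431 rows tested, sham replicate 1 was lowest in its group in 5191 and TBI replicate 2 in 4432.

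The genes of the lineage and its precursors were compared next. Olig2 was the only one of the 9 genes with an unadjusted p under 0.05, and it did not pass the adjusted threshold. Pdgfra and Cspg4, both carried by precursors, had changes of opposite sign.

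Olig2 was at 28.4, 28.2, 31.9, 33.3 and 26.7 CPM in sham replicates 1 to 5. In TBI replicates 1 to 5 it was at 39.9, 31.8, 31.6, 40.2 and 37.2 CPM. All 5 TBI rats were above the sham mean and 3 of them were above the highest sham rat, so the groups overlapped. The means were 29.7 ± 2.78 CPM (SD, n = 5) and 36.1 ± 4.23 CPM (SD, n = 5). This was a fold of 1.22 with a 95% interval of 1.07 to 1.39, or a log2 change of 0.28 with an SE of 0.0911. The unadjusted p was 0.00598 and the adjusted p was 0.487 (edgeR quasi-likelihood test, Benjamini-Hochberg over 22431 rows). The log2 change was 0.24 to 0.33 when each rat was left out in turn.

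Pdgfra, the receptor through which platelet-derived growth factor drives precursors to divide, was at 32.4, 40.1, 30.3, 34.9 and 29.2 CPM in sham replicates 1 to 5. TBI replicates 1 to 5 had 33.2, 30.3, 33.2, 30.01 and 25.2 CPM. All 5 TBI rats were below the sham mean, though inside or near the sham range. The log2 change was -0.14 with an SE of 0.0967 (edgeR quasi-likelihood test, Benjamini-Hochberg adjusted p = 0.769). Pdgfra is also made by fibroblasts of the meninges, and of 8 genes of that tissue 4 had an unadjusted p under 0.05, all higher in TBI, beside 4.89% of all rows. None of the 8 passed an adjusted p of 0.05 (edgeR quasi-likelihood test), and Lum had a log2 change of -0.95 with an unadjusted p of 0.199. The 8 genes had summed levels of 10.00 to 23.8 CPM in sham and 17.5 to 27.7 CPM in TBI rats. The part of these cells in the Pdgfra level was not tested.

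Cspg4, the NG2 proteoglycan of precursors and of pericytes, was at 24.5, 24.2, 25.7, 26.8 and 21.4 CPM in sham replicates 1 to 5. In TBI replicates 1 to 5 it was at 30.3, 28.9, 27.4, 26.5 and 20.7 CPM. The highest 3 TBI rats were above all sham rats, and TBI replicate 5 was below them all. The log2 change was 0.13 with an SE of 0.0977 (edgeR quasi-likelihood test, Benjamini-Hochberg adjusted p = 0.797). Of 8 genes of pericytes and smooth muscle, 1 had an unadjusted p under 0.05 and was higher in TBI, beside 4.89% of all rows. None of the 8 passed the adjusted threshold. The summed levels of these genes were 43.0 to 54.7 CPM in sham and 43.8 to 66.7 CPM in TBI rats. Their part in the Cspg4 level was not tested.

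**Figure D2:**
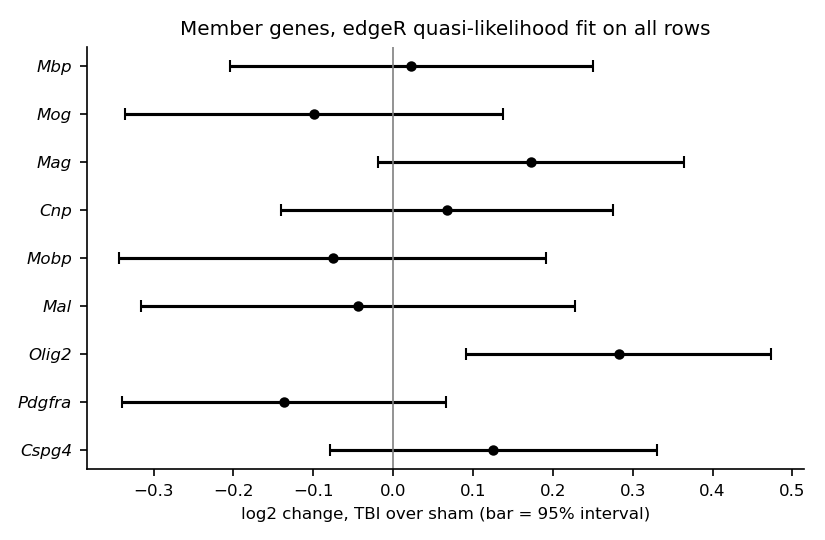
Log2 change of each of the 9 genes, TBI over sham (x axis), from the edgeR quasi-likelihood fit on all rows, with its 95% interval as a bar. The interval lies above 0 for Olig2, at 0.09 to 0.47, and covers 0 for the other 8 genes.

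Over all 9 genes, 1 had an unadjusted p under 0.05, and it was higher in TBI. Of all 22431 rows tested, 7.89% were past this threshold, with 4.89% higher and 3% lower in TBI. At an adjusted p of 0.05 there were 0 of the 9 genes, and 0% of all rows. At the unadjusted level of 0.001 there were again 0 of the 9, beside 0.196% of all rows. The groups did not overlap in 0 of the 9 genes and in 0.923% of all rows. The median log2 change was 0.02 over the 9 genes, -0.01 over the 6 myelin genes and -0.01 over all rows. The share past the threshold was thus near the background for the 9 genes.

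The same comparison was made with regard to the high ribosomal RNA share of sham replicates 4 and 5. With this share as a covariate, the median log2 change was 0.12 over the 9 genes and 0.08 over the 6 myelin genes. Without the 2 rats these medians were 0.10 and 0.06. Mobp was then at 0.04 and 0.01, against -0.08 with all rats. Scaling by total counts in place of TMM, which puts the median of all rows at 0.50, put the median of the 9 genes at 0.55.

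The wider set of genes that build, feed and control myelin was then examined in 7 lists. Listed genes without a row, such as Sirt2 and Enpp6, and Lif, which the filter removed, were not tested. This left 89 genes tested, with the 9 included. Of these, 13 had an unadjusted p under 0.05 and were higher in TBI, and 3 were lower. This was 18.0% of the 89, or 18.8% of the 80 other than the 9, beside 7.89% of all rows. The lists were chosen with earlier results of these data known, so these shares are a description and not a test. The median log2 change was 0.08 over the 89 genes, 57 of them were higher, and 0 passed an adjusted p of 0.05 (smallest Benjamini-Hochberg adjusted p = 0.483, edgeR quasi-likelihood test). With the ribosomal RNA share as a covariate the counts were 6 higher and 1 lower, beside 549 higher and 443 lower of all 22431 rows. Without the 2 sham rats rich in ribosomal RNA they were 7 higher and 2 lower, beside 741 higher and 515 lower of 22445 rows. Leaving out TBI replicate 1 gave 8 higher. The part of the ribosomal RNA share in these differences was not tested beyond these fits.

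**Figure D3:**
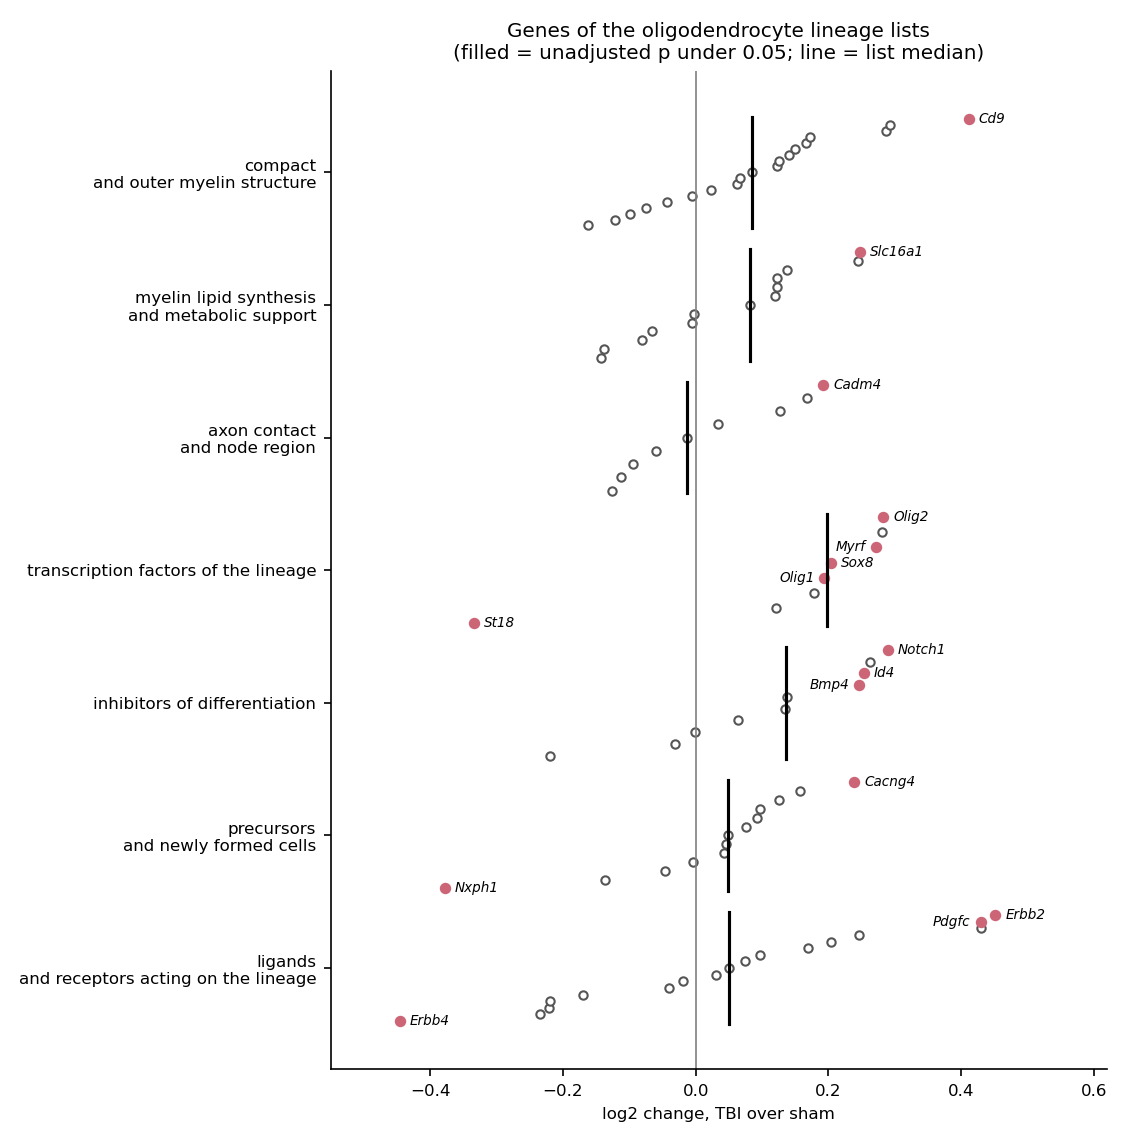
Log2 change, TBI over sham (x axis), of each tested gene of the 7 lists (y axis), with genes of an unadjusted p under 0.05 filled and named and the median of each list as a vertical line. Among transcription factors 4 of 8 genes are filled to the right of 0 and St18 is filled to the left. Over all rows 4.89% were higher and 3% lower at this threshold.

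The transcription factors of the lineage held the most such genes, with 4 of 8 higher and 1 lower and a median log2 change of 0.20. Over all rows 4.89% were higher and 3% lower at this threshold. A further 3 listed factors, Zfp488, Zfp536 and Tcf7l2, had no row. Olig1, a close relative of Olig2 with a part in myelin repair, was at 122 ± 6.85 CPM (SD, n = 5) in sham against 139 ± 9.36 CPM (SD, n = 5) in injured rats (log2 change 0.19, unadjusted p = 0.0175, adjusted p = 0.548, edgeR quasi-likelihood test). Myrf, which switches on myelin genes in maturing oligodendrocytes, was at 107 ± 13.7 CPM (SD, n = 5) and 129 ± 18.4 CPM (SD, n = 5), with a log2 change of 0.27 and an unadjusted p of 0.0163 (adjusted p = 0.548). Sox8, a SOX factor that acts beside Sox10, had a log2 change of 0.20 and an unadjusted p of 0.0248. Sox10 itself had 0.18 with an unadjusted p of 0.0806. The factor St18 was lower, at 7.67 ± 1.27 CPM (SD, n = 5) in sham against 6.06 ± 0.364 CPM (SD, n = 5) in injured rats, with no overlap between the groups. Its log2 change was -0.33 with an unadjusted p of 0.00856 (edgeR quasi-likelihood test, adjusted p = 0.487). The groups did not overlap in 2 of the 89 genes and in 0.923% of all rows. St18 had 99 to 245 counts per library, fewer than any of the 9 genes.

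Genes known to hold back differentiation were listed on their own. Of 10 tested, 3 were higher at an unadjusted p under 0.05, beside 4.89% of all rows, and 0 were lower. Their median log2 change was 0.14. Notch1, the receptor by which neighbouring cells restrain maturation, had a log2 change of 0.29 (edgeR quasi-likelihood test, unadjusted p = 0.0121, adjusted p = 0.512). The bone morphogenetic protein Bmp4 had 0.25 (adjusted p = 0.568) and Id4, which blocks the partners of Olig2, had 0.25 (adjusted p = 0.579). The Notch target Hes5 had a log2 change of -0.22 with an unadjusted p of 0.192. Hes1, which lies in the same pathway, had -0.03 with a p of 0.839. Notch1, Bmp4 and Id4 are also made by other cells of the hippocampus, astrocytes among them.

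Structural genes of compact and outer myelin, the 6 genes above among them, made up the largest list. Of 19 tested, 1 was higher at an unadjusted p under 0.05 and 0 were lower, beside 4.89% and 3% of all rows. The median log2 change was 0.08. The gene past the threshold was Cd9, a tetraspanin that microglia and other cells also carry, at 48.9 ± 6.86 CPM (SD, n = 5) in sham against 65.1 ± 10.9 CPM (SD, n = 5) in injured rats (log2 change 0.41, unadjusted p = 0.00272, adjusted p = 0.483, edgeR quasi-likelihood test). In its own edgeR fit, with fewer controls by its methods, the study listed Cd9 among the genes higher after TBI. Pllp had a log2 change of 0.17 with a p of 0.0742. Omg, a myelin glycoprotein that limits axon growth, had -0.16 with a p of 0.0968.

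Among 13 genes of myelin lipid synthesis and metabolic support, 1 was higher at this threshold, beside 4.89% of all rows. The median log2 change was 0.08. Slc16a1, the transporter through which oligodendrocytes pass lactate to axons, had a log2 change of 0.25 and an unadjusted p of 0.0213 (edgeR quasi-likelihood test). Tf, the iron carrier transferrin, had 0.25 with a p of 0.0507, while Ugt8, which makes the galactolipids of myelin, had -0.14 with a p of 0.208. Enpp2 had -0.08 with a p of 0.455. Among 9 genes of axon contact and the node region, Cadm4, an adhesion protein of the sheath, had a log2 change of 0.19 and an unadjusted p of 0.0200. Its groups did not overlap (123 to 147 CPM in sham and 149 to 161 CPM in TBI rats), as in 0.923% of all rows. Cntn2 had 0.13, Cntn1 had -0.13 and Nrcam had -0.11, none with a p under 0.05, and the median of the list was -0.01.

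Of 13 genes of precursors and newly formed cells, with Pdgfra and Cspg4 among them, 1 was higher and 1 lower at an unadjusted p under 0.05. Their median log2 change was 0.05. Over all rows 4.89% were higher and 3% lower at this threshold. Cacng4, a subunit that accompanies glutamate receptors of precursors, had 0.24 with a p of 0.0208 (edgeR quasi-likelihood test). Nxph1, a secreted ligand of neurexins that interneurons also make, was at 9.89 ± 1.57 CPM (SD, n = 5) in sham against 7.61 ± 0.851 CPM (SD, n = 5) in injured rats (log2 change -0.38, unadjusted p = 0.00439, adjusted p = 0.485). Of 17 ligands and receptors acting on the lineage, 2 were higher and 1 lower, with a median of 0.05. The receptor Erbb2 had a log2 change of 0.45 (edgeR adjusted p = 0.532) and the growth factor Pdgfc had 0.43 (edgeR adjusted p = 0.628). Erbb4, a neuregulin receptor that interneurons also carry, had -0.45 (edgeR adjusted p = 0.548) and Lifr had -0.24 (edgeR adjusted p = 0.679). Erbb2, Pdgfc, Erbb4 and Lifr were all at group means under 6 CPM, so each rests on fewer counts than the 9 genes.

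Markers of other cell types were read in the same fit, and 0 of them passed an adjusted p of 0.05. The counts below stand beside 4.89% of all rows higher and 3% lower in TBI at an unadjusted p under 0.05. Of 8 astrocyte genes 3 were higher in TBI at an unadjusted p under 0.05, with Gfap at a log2 change of 0.82 (edgeR quasi-likelihood test, adjusted p = 0.514) and summed levels of 2999 to 3969 CPM in sham and 3285 to 4839 CPM in TBI rats. The study also listed Gfap among the genes higher after TBI in its own fit. Of 10 microglia genes 3 were higher, with summed levels of 192 to 304 CPM in sham and 233 to 324 CPM in TBI rats. Of 8 neuron genes and of 8 endothelium genes 0 had a p under 0.05 in either direction, and of 5 choroid plexus and 5 thalamus genes 1 each was higher. Schwann cells, which make the myelin of peripheral nerve, had markers at a summed level of 3.38 to 6.47 CPM over all rats, and of 4 tested 0 were higher and 1, Dhh, was lower at an unadjusted p under 0.05 (log2 change -0.69, edgeR adjusted p = 0.589). All 4 dentate granule cell genes tested were lower in TBI, with a median log2 change of -0.25, and 0 had an unadjusted p under 0.05. Of 4 CA3 pyramidal cell genes 3 were higher, with a median of 0.03 and 0 past this threshold. The part of astrocytes and microglia in the changes of the lineage lists was not tested.

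The last question was how the 9 genes varied together between rats. Over all 10 rats the 15 pairs of myelin genes had a median Pearson r of 0.68 on log2 CPM, from 0.41 to 0.93, and a median Spearman rho of 0.60. The 18 pairs of a myelin gene with Olig2, Pdgfra or Cspg4 had a median r of 0.03, from -0.48 to 0.68. The 3 pairs among these lineage genes had a median r of 0.38, from -0.32 to 0.43. All genes of a rat come from the same library, and the 15 pairs share their genes.

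Mbp and Mobp had the highest value, with r = 0.93 (permutation p = 7e-05, adjusted p = 0.00252 over 36 pairs) and rho = 0.88 (permutation p = 0.00174, adjusted p = 0.0626). Mog and Mobp had r = 0.88 (permutation p = 0.00074, adjusted p = 0.0133) and rho = 0.73 (permutation p = 0.0199, adjusted p = 0.247). Mag and Cnp had r = 0.88 (permutation p = 0.00151, adjusted p = 0.0181) and rho = 0.64 (permutation p = 0.0548, adjusted p = 0.247). These 3 of 36 pairs passed an adjusted p of 0.05 by r, and 0 passed by rho. Mag and Olig2 had the highest r of the mixed pairs, 0.68 (permutation p = 0.0224, adjusted p = 0.107), with rho = 0.65 (permutation p = 0.0493, adjusted p = 0.247).

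Sham replicate 1 was the lowest sham rat and TBI replicate 2 the lowest TBI rat in all 6 myelin genes, and in 0 of the 3 lineage genes. Over all 22431 rows tested, sham replicate 1 was the lowest sham rat in 5191 and TBI replicate 2 the lowest TBI rat in 4432. Without sham replicate 1 the median r of the myelin pairs was 0.53, and without TBI replicate 2 it was 0.67. Leaving out the 2 rats farthest from the median of the first gene of a pair gave a median r of 0.37. Values ran from -0.09 for Mag and Mal to 0.79 for Mog and Cnp. The 3 pairs named above were at 0.78 for Mbp and Mobp, 0.76 for Mog and Mobp and 0.53 for Mag and Cnp. Cnp and Mal were at -0.08, and Mbp and Mal at 0.03. Leaving out these rats narrows the range of the first gene, which can lower r, and the rats left out differed between pairs. The part of this in the lower median was not tested. The r of Mog with Mag, at 0.41 over all rats, was then 0.50. Sham replicate 1 also stood apart in genes of other cells, with 60.1 CPM summed over dentate granule cell genes against 182 to 225 CPM in the other sham rats, and 3896 CPM over neuron genes against 3128 to 3266 CPM. Whether the piece of tissue taken bears on its myelin genes was not tested.

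**Figure D4:**
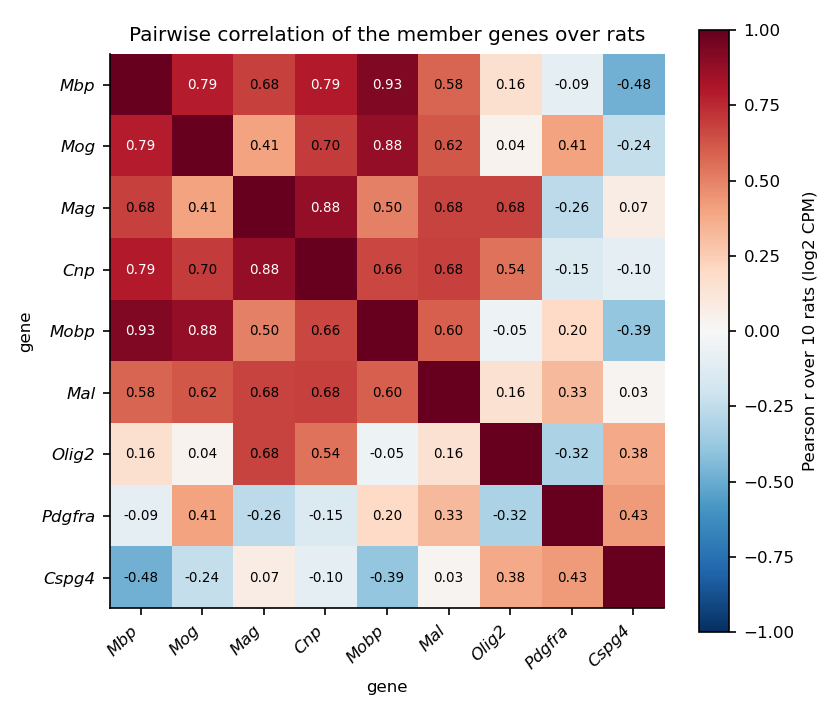
Pearson r over the 10 rats on log2 CPM for each of the 36 pairs of the 9 genes, as a grid with the value printed in each cell. The 15 cells among the 6 myelin genes run from 0.41 to 0.93, and the 18 cells that join them to Olig2, Pdgfra and Cspg4 have a median of 0.03.

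Genes with the most similar pattern over the 10 rats were ranked by Pearson r to the mean of the 6 myelin genes, each first standardised on log2 CPM, among 9311 rows with a mean of at least 10 CPM. The closest was Fa2h, the enzyme that adds the hydroxyl group to the fatty acids of myelin lipids, with r = 0.97. H3f3b followed with 0.94, Lpar1 with 0.93, Slc6a9 with 0.93 and Stmn4 with 0.92. Evi2a, Ptma, Car2, Rpl4 and Jakmip3 had r of 0.89 to 0.86. Fa2h, Lpar1 and Car2 were among the genes of the lists above. These values are a description over 10 rats, with no test, and the mean of the 6 genes is lowest in sham replicate 1 and TBI replicate 2.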

How the data were processed

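Messenger RNA reads were counted in 10 rat libraries, 5 sham and 5 TBI by the labels. The methods of the study give fewer controls, 3, for messenger RNA profiling in this model, without naming the rats, so all 5 sham rats were used. The authors deposited counts of reads for each RefSeq RNA record, 1 column per rat and not normalized. Per the labels, reads were aligned with BWA to rn4. The methods of the study name an Ensembl annotation, and how this goes with the RefSeq rows was not settled. Whether strand was used in counting is not given in the sources used here. An empty entry and the unmapped reads (median 22.2% of reads per library) entered neither library sizes nor tests. RefSeq names of another assembly, GRCr8, gave a symbol to 54.2% of records, and coordinates and start regions printed here are of that assembly only.

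Rows with a total of at least 44 counts, the 30th percentile, were kept (22431 rows) and tested with edgeR 4.0.16 (quasi-likelihood F test, robust estimation, TMM) in R 4.3.3, with Benjamini-Hochberg adjustment. CPM use the TMM-adjusted library size, and log2 CPM for correlations used a prior count of 2. Permutation tests of correlations used 100000 resamples. The fit was first tested on simulated data made from the means and sizes of these libraries. No library was a copy of another by chi-square of counts over rows.

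Named genes were the 9 genes, and from each lineage list the 2 with the smallest p in each direction and every gene with an unadjusted p under 0.05, with Sox10, Nkx6-2, and Gfap among marker genes added after their values were seen. The 10 genes most like the myelin genes followed the rule given with them. The genes and lists were chosen with earlier results of these data known. Alternatives included the exact and likelihood ratio tests, DESeq2 1.42.0, limma 3.58.1 with voom, other scalings and filters, a ribosomal RNA covariate and leaving out rats. Replicates were numbered in sample order. Each group is of separate rats. Some listed genes are not reported here.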

Additional observations from a re-analysis of the deposited data

Results flagged for a closer look

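Of 40 groups of 5 rats examined for a single distant value, 6 held one. Chance gives about 1 in 20, or 2 of 40. Mag in sham replicate 1 was at 214 CPM, below the 276 to 291 CPM of the other sham rats. Mobp in TBI replicate 2 was at 204 CPM, below the 283 to 308 CPM of the other TBI rats. In sham replicate 1 the summed level of neuron genes was 3896 CPM against 3128 to 3266 CPM in the other sham rats, that of dentate granule cell genes was 60.1 CPM against 182 to 225 CPM, and that of CA3 pyramidal cell genes was 716 CPM against 525 to 575 CPM. In sham replicate 4 the summed level of choroid plexus genes was 35.7 CPM against 6.40 to 14.2 CPM in the other sham rats. The sums of one rat are not independent of each other.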

How the results depend on the processing

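None of the 9 genes passed an adjusted p of 0.05 under any of the 25 alternatives run. Olig2 kept its sign and an unadjusted p under 0.05 in all 25 (edgeR, DESeq2 or limma adjusted p = 0.114 to 0.974). These 25 include the fit without sham replicate 3 and TBI replicate 3 described below, which supports nothing. Scaling by total counts moved the median of all rows to 0.50. It put the median log2 change of the 9 genes at 0.55, Mog at 0.43, Mobp at 0.44, Mal at 0.43 and Pdgfra at 0.34, the number of the 9 with an unadjusted p under 0.05 at 2, the lineage genes at 31 higher and 0 lower, all rows at 92 past the adjusted threshold, 3788 under 0.05 and 188 under 0.001, and the median r at 0.956 for myelin pairs, 0.943 for lineage pairs and 0.889 for mixed pairs. With the ribosomal RNA covariate Mog was at 0.0195 and Mobp at 0.0398, lineage genes were 6 higher and 1 lower, and all rows were 992 under 0.05 and 12 under 0.001. Without the 2 sham rats rich in ribosomal RNA Mobp was at 0.00991, with 7 lineage genes higher and 18 rows under 0.001. All rows under 0.001 numbered 44 in the reported fit, 119 by the exact test, 126 by the likelihood ratio test, 113 by DESeq2 (which called 3 rows at the adjusted threshold) and 81 without a filter. The cause of these shifts was not tested.

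An alternative among the 25 left out sham replicate 3 and TBI replicate 3 together. These rats were picked because their expression had stood nearer the other group in earlier work on these data, so the groups are set further apart by that choice and its counts support nothing. It gave 3 lineage genes (Cd9, Nkx6-2 and Nxph1) and 319 rows past the adjusted threshold, 361 rows under 0.001, 20 lineage genes higher and 5 lower, Mbp at -0.0137 and Mal at 0.00329.

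When each rat was left out in turn, log2 changes were -0.0442 to 0.0998 for Mbp, -0.17 to -0.03 for Mog, 0.10 to 0.22 for Mag, -0.0137 to 0.117 for Cnp, -0.152 to 0.0165 for Mobp, -0.161 to 0.0665 for Mal, 0.24 to 0.33 for Olig2, -0.18 to -0.06 for Pdgfra and 0.08 to 0.21 for Cspg4. The number of the 9 genes with an unadjusted p under 0.05 was 1 to 2, with 2 without TBI replicate 2 or TBI replicate 5. Lineage genes were 8 to 18 higher (8 without TBI replicate 1) and 2 to 4 lower. All rows numbered 0 to 12 past the adjusted threshold (5 without sham replicate 3, 12 without TBI replicate 3), 1162 to 2571 under 0.05 (lowest without sham replicate 2) and 9 to 196 under 0.001 (9 without sham replicate 2, 196 without sham replicate 3). The median r was 0.530 to 0.798 for myelin pairs (0.530 without sham replicate 1), 0.0596 to 0.430 for lineage pairs and -0.0983 to 0.135 for mixed pairs. The difference in ribosomal RNA share was -22.7 to -13.9 percentage points and was no longer past 0.05 without each TBI rat. As a difference of medians over all rats it was -6.51 points (exact permutation p = 0.0476). No paired analysis was possible because the labels number the rats from 1 to 10 without pairing them. The SE of the 9 genes was 0.0911 to 0.128 on the log2 scale, which sets the size of change these libraries can show.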
